A study of Xenopus laevis with 64 samples.

Results

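The transcripts described here encode 4 enzymes of glycolysis in Xenopus laevis: aldoc.L, gapdh.S, pkm.S and ldhb.S. They were taken as every spot of a small cDNA array that carries one of these names, and make up 6 of its 406 duplicate spot pairs (12 of 812 spots). gapdh.S has 3 pairs, called A, B and C in their order on the array, and the other genes have 1 pair each. The endings L and S name the long and short subgenomes of this tetraploid frog. Spots of one gene share their target, so the 3 gapdh.S pairs are repeated readings of 1 gene and not 3 results.

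RNA of single tadpoles was amplified, labelled with P32 and hybridised, 1 array to an animal and tissue, and 64 arrays in 20 groups were deposited. Exposures began at Nieuwkoop-Faber (NF) stage 54, early in the thyroid hormone-dependent part of metamorphosis, when the hindlimb grows and the tail still stands before its regression. Hindlimb was sampled at 24 h (26 arrays) and 96 h (12 arrays) and tail at 48 h (26 arrays). In the hormone experiments 4 animals received 1.92 nM T3 and 4 received 10 nM T4, each with 3 untreated controls of their own exposure set, in hindlimb at 24 h and tail at 48 h. In the inhibitor experiment 3 animals each were given 20 mg/L of PTU, the thyroid drug propylthiouracil, 100 mg/L of MMI, which is methimazole, or 4 mg/L of PER, which is perchlorate. Their 3 controls are shared, and the groups exist in hindlimb at 24 h and 96 h and in tail at 48 h. The inhibitors lower the production of hormone by the thyroid gland. No label ties an animal to its tank, and p-values therefore measure the spread between animals only.

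Glycolysis splits glucose to pyruvate and yields ATP without oxygen. Aldolase cleaves the phosphorylated hexose, glyceraldehyde-3-phosphate dehydrogenase (GAPDH) oxidises the resulting triose phosphate, pyruvate kinase makes pyruvate and ATP in the closing step, and lactate dehydrogenase interconverts pyruvate and lactate. Vertebrates carry several isoforms of aldolase and lactate dehydrogenase. In mammals, aldolase C is known from brain and the B subunit of lactate dehydrogenase from heart and other oxidative tissue.

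Values are log2 intensities after background correction and quantile normalization. A pair counts as above background on an array where its mean exceeds 2 SD of that array's noise. Between 22 and 93 of the 406 pairs of an array were above background, and the 7 sets into which tissue, time and experiment divide the arrays do not share 1 scale. Of the 24 glycolysis genes searched for, only these 4 have a named pair. No named pair stands for glucose uptake, glycogen or gluconeogenesis (25 symbols), pyruvate oxidation and respiration (41 symbols), creatine and muscle energy (8 symbols) or hypoxia factors (5 symbols). As checks on the tissue labels the array offers little: the limb gene pitx1.L was above background on 1 of 38 hindlimb and 1 of 26 tail arrays.

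The first comparison asked how hindlimb and tail differ in animals that received nothing, over 9 control arrays of tail at 48 h and 9 of hindlimb at 24 h. Tissue and time differ together here and cannot be told apart. The 4 enzymes did not lie on one side. gapdh.S was lower in tail, aldoc.L and pkm.S were above background in tail and not in hindlimb, and ldhb.S was bright in both and slightly higher in tail. All 6 pairs passed the test (adjusted p under 0.05, limma with Benjamini-Hochberg adjustment), 3 higher and 3 lower, where 44.3% of all 70 tested pairs passed. The share that passed upwards was 25.7% and downwards 18.6%. Testing needed 3 arrays above background among those compared, a rule that aldoc.L and pkm.S met through tail arrays alone. Their direction was thus set by the rule, and their upward calls are no separate support for it. The median over the 6 pairs, in which gapdh.S counts 3 times, was -0.97, against 0.03 over all pairs tested, and over the 4 genes, with the gapdh.S pairs averaged, it was 1.75. The median over all pairs depended on the scaling, at 0.45 with arrays centred on their bright pairs, -0.16 centred on all pairs and -0.21 with no scaling. The pairs that passed upwards were 18 of 31, and 22 of 32, 15 of 33 and 13 of 30 under these scalings, while the directions of the 6 members stayed as they were.

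aldoc.L read 8.43 to 10.15 in the 9 hindlimb controls (median 9.61) and was above background on none of them. In the tail controls it read 9.76 to 13.36 (median 12.31) and was above background on 8 of 9. The 2 ranges overlap only through the 1 tail array that lay at background. The fitted difference was 2.76 on the log2 scale (SE 0.38, adjusted p 8.05e-06 in limma). As the pair was tested through its tail arrays alone, this p-value does not bear on the direction. Because the hindlimb gives only an upper bound, the mean level in tail is given as at least 2.56-fold higher. The bound was set array by array at the lowest signal that still passed for above background. The 1 tail array at background entered the tail mean at its reading, so the fold is approximate.

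gapdh.S, the enzyme in the middle of the pathway, was among the brightest spots of the hindlimb. Pair B read 13.71 to 14.72 in hindlimb controls (median 14.00) and 10.52 to 12.40 in tail controls (median 11.24). All 9 hindlimb arrays were above background and 6 of 9 in tail, the exceptions being the 3 tail controls of the T3 set. Pair A read 13.63 to 14.77 in hindlimb and 10.63 to 12.95 in tail, and pair C read 13.76 to 14.58 and 10.49 to 12.44. For none of the 3 pairs did the tissues overlap, and the share of all tested pairs without overlap is not given here.

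The 3 pairs gave closely similar differences of tail minus hindlimb. These were -2.69 for pair A (SE 0.29, adjusted p 3.51e-07), -2.67 for pair B (SE 0.22, adjusted p 1.94e-08) and -2.78 for pair C (SE 0.21, adjusted p 1.26e-08), all in limma. Within single exposure sets, pair B differed by -2.85 in the T4 set and -2.21 in the inhibitor set. In the T3 set pairs B and C were above background on 0 of 3 tail controls and pair A on 1 of 3. The tail has only a bound there for B and C, which were at least 7.14-fold and 7.87-fold lower than in hindlimb. The differences over all 9 arrays rest in part on these arrays at background. In bulk tissue, fewer cells that express a gene and less of its RNA per cell cannot be told apart.

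pkm.S, which makes pyruvate, followed the aldolase. It read 8.78 to 10.07 in hindlimb controls (median 9.92), with 0 of 9 above background, and 9.04 to 13.76 in tail controls (median 13.03), with 8 of 9 above background. The fitted difference was 2.79 (SE 0.46, adjusted p 6.11e-05 in limma), and the tail level was at least 3.42-fold higher. As for aldoc.L, the p-value does not bear on the direction. The same tail array, replicate 3 of the T4 controls, was at background for both genes, and both bounds count it at its reading.

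ldhb.S, the lactate dehydrogenase, was above background on every array of the series. It read 13.61 to 14.77 in hindlimb controls (median 13.74) and 14.06 to 14.88 in tail controls (median 14.77). The ranges overlap, and the difference was 0.74 (SE 0.19, adjusted p 0.00315 in limma), or 1.67-fold. It depended on the scale and the set. It read 0.48 with each array centred on its median (adjusted p 0.0843), 0.42 with no scaling (adjusted p 0.129) and 0.15 in the T4 set alone (adjusted p 0.84), against 1.07 in the T3 set and 0.99 in the inhibitor set. ldhb.S was the brightest of all 406 pairs on 15 of 26 tail arrays and among the 4 brightest on all 26. Quantile normalization gives the brightest spot of each array the same value, so differences among those arrays are compressed.

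**Figure D1:**
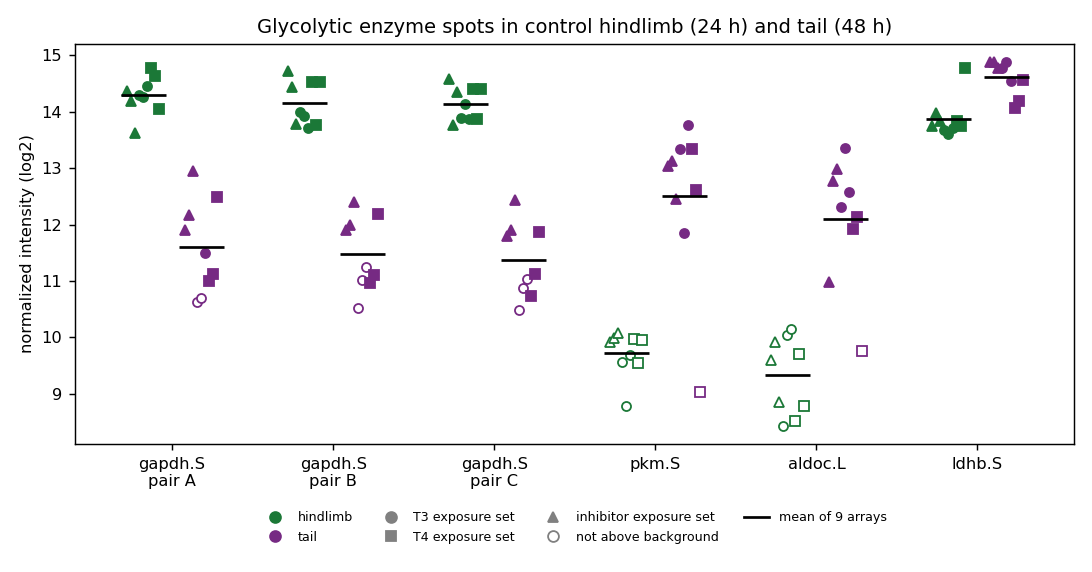
Normalized log2 intensity of each pair (vertical axis) in the 9 hindlimb controls at 24 h and the 9 tail controls at 48 h, by gene (horizontal axis), with symbols for the exposure set, open points for arrays not above background and bars for means. The 3 gapdh.S pairs lie lower in tail with no overlap, pkm.S and aldoc.L are open in all hindlimb controls and filled in 8 of 9 tail controls, and ldhb.S overlaps between the tissues.

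The array of the T4 controls in tail that stood apart did so for more than the enzymes. On it pkm.S read 9.04 and aldoc.L 9.76. The muscle filament gene des.1.S read 9.51 there, against a median of 13.18 over the 9 tail controls, and tpm4.S, a tropomyosin, read 11.90 against 13.21. The haemoglobin gene hbd.S read 12.98, the highest of the 9, and gapdh.S pair B read 12.19. With any 1 of the 18 control arrays left out, 6 of 6 pairs passed.

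Muscle markers moved with the tissues too. Of 28 muscle symbols, 4 have a pair: des.1.S, tpm4.S, myf5.L and myf6.L. des.1.S was above background on 0 of 9 hindlimb and 8 of 9 tail controls, tpm4.S on 7 and 9, myf5.L on 6 and 1, and myf6.L on none. Of the 3 tested, 2 were higher and 1 was lower in tail. The summed level of the 4 ran from 11.80 to 13.34 in hindlimb controls and from 12.58 to 15.09 in tail controls. Whether muscle content has a part in the differences of the enzymes was not tested.

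Since the sets lie on different scales, each gene was also set against gapdh.S on its own array, after background correction and without quantile normalization. A single factor for all corrected values of an array cannot move this ratio, while quantile normalization can. The log2 ratio of ldhb.S to gapdh.S pair B ran from -0.77 to 0.17 in hindlimb controls (median -0.18) and from 2.77 to 3.91 in tail controls (median 3.50). The tissues did not overlap. Such a ratio of spots compares the tissues and does not rank the 2 transcripts by abundance. On the 3 tail controls of the T3 set gapdh.S pair B was at background, so that end of the ratio rests in part on background. The difference was 3.29 in the T4 set and 3.74 in the inhibitor set, where pair B was above background on all arrays. Over all 3 sets it was 3.57, with p = 0.00025 in a two-sided exact permutation test within exposure sets, the smallest that 8000 arrangements allow.

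Against pairs A and C the same difference was 3.60 and 3.63. The ratios of pkm.S and aldoc.L to the 3 gapdh.S pairs differed by 5.74 to 5.89 without overlap, but their hindlimb end rests on spots at background. The 9 ratios were added with the results in view. All gave p = 0.00025 in the exact permutation test, before and after adjustment over the 9. gapdh.S stands in all 9 and was already seen not to overlap between the tissues. The 9 p-values are thus not separate results and add no support to the gapdh.S difference. On the normalized values gapdh.S pair B differed by -2.67 and ldhb.S by 0.74, so most of the ldhb.S ratio difference lies in gapdh.S.

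Over all groups the ratio of ldhb.S to gapdh.S pair B kept the tissues apart. The 38 hindlimb arrays ran from -0.77 to 0.95 (median -0.18) and the 26 tail arrays from 2.58 to 3.91 (median 3.23). Group means lay between -0.37 and 0.38 in the 12 hindlimb groups and between 3.09 and 3.52 in the 8 tail groups. The highest hindlimb group was the inhibitor control at 96 h (0.38 ± 0.52, SD, n = 3) and the lowest tail group was T4 (3.09 ± 0.48, SD, n = 4).

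**Figure D2:**
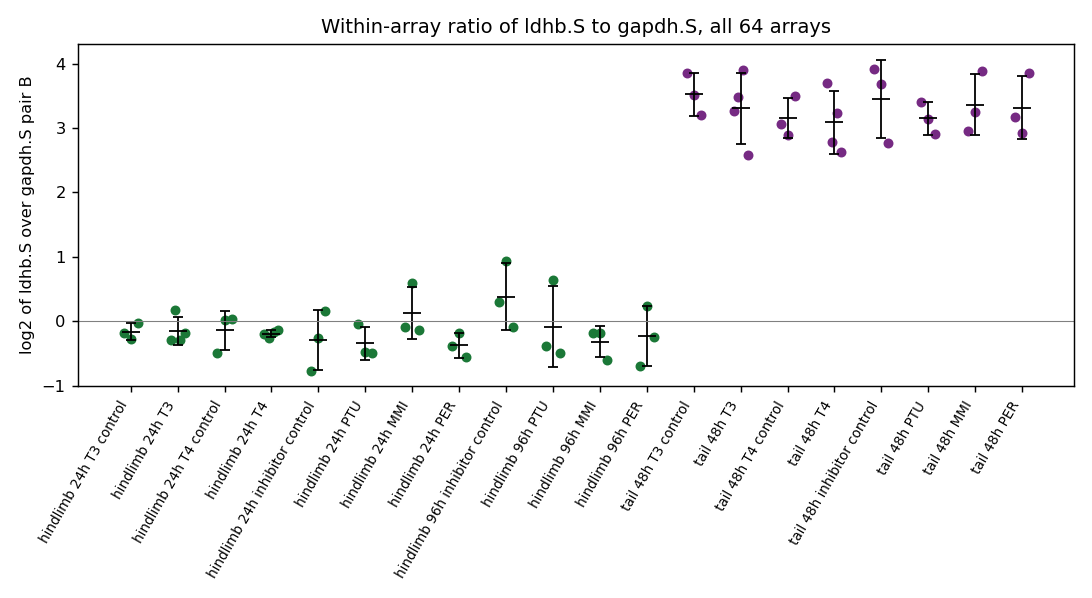
Log2 ratio of ldhb.S to gapdh.S pair B within each of the 64 arrays (vertical axis) by group (horizontal axis), with means and SD. All 38 hindlimb arrays lie between -0.77 and 0.95 and all 26 tail arrays between 2.58 and 3.91.

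The tissue comparison was repeated in exposed animals, each exposure on its own. Here too the rule for testing was met through tail arrays alone by aldoc.L with T3 and T4 and by pkm.S with MMI, which set their direction. For pkm.S with T3 and T4 the tail arrays also sufficed for the rule, with 1 of 4 hindlimb arrays above background each. The upward calls of these pairs are no separate support for the direction. With T3, 6 of 6 pairs passed, where 52.3% of all 65 tested pairs did. These were 3 higher in tail (background 24.6%) and 3 lower (27.7%). With T4, 5 of 6 passed (background 60.3% of 58), 2 higher (29.3%) and 3 lower (31.0%). With PTU, 4 of the 4 tested passed (32.7% of 49), 1 higher (18.4%) and 3 lower (14.3%). The counts were the same with MMI and PER, at 4 of 5 each, 1 higher and 3 lower. Their backgrounds were 45.7% of 46 pairs with MMI (28.3% higher, 17.4% lower) and 39.2% of 51 with PER (27.5% higher, 11.8% lower). gapdh.S was lower in tail in all 15 of its tests, by -2.28 to -3.24, and kept its direction and its call in every alternative tried.

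aldoc.L and pkm.S were higher in tail under both hormones. With T3, aldoc.L read 12.85 ± 0.26 in tail (SD, n = 4), at least 4.47-fold above the hindlimb, where no array was above background. With T4 it read 11.54 ± 0.76 (SD, n = 4), and 3 of 4 tail arrays were above background. Its bound of at least 2.00-fold above the hindlimb counts the tail array at background at its reading and is approximate. pkm.S differed by 3.68 with T3 (SE 0.63, adjusted p 4.21e-06 in limma) and by 2.32 with T4 (SE 0.63, adjusted p 0.0018 in limma). Its hindlimb side was above background on 1 of 4 arrays with each hormone, so the sizes rest mostly on background. With 4 of 4 tail arrays above background, pkm.S met the rule for testing through the tail, and these p-values do not bear on the direction. With inhibitors, aldoc.L was above background on 2 of 3 tail arrays in each group and was not tested.

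pkm.S with MMI was above background on 3 of 3 tail arrays and 0 of 3 hindlimb arrays, and at least 3.05-fold higher in tail. With PER its difference of 1.63 missed the threshold (adjusted p 0.0689 in limma). Without tail replicate 2 of the PER group, which lay at background, it was 2.63 and passed (adjusted p 0.00678 in limma). That was the largest of 18 alternatives, over which the pkm.S difference ran down to 0.61 and passed in only 3. Its hindlimb side was above background on 1 of 3 arrays, so these sizes too rest mostly on background. ldhb.S was higher in tail with T3 (0.82), PTU (1.06) and PER (0.99), and missed the threshold with T4 (0.38, adjusted p 0.0764) and MMI (0.46, adjusted p 0.0751) in limma. Each of these 5 differences of ldhb.S either turned its direction or lost its call under at least 1 other scaling.

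The question the exposures address is whether hormone or inhibitor shifts these transcripts within a tissue. Within 13 comparisons of exposed and control animals, 56 of the 72 possible member tests had enough signal, and limma passed 0 of them, while 3 had an unadjusted p under 0.05. The background was 0% in the 5 hindlimb comparisons at 24 h and the 5 tail comparisons, and 10.6% with PTU, 6.90% with MMI and 2.86% with PER in hindlimb at 96 h. The 3 tests with an unadjusted p under 0.05 were all with MMI in tail, where 16 of all 51 tested pairs had one. The lowest adjusted p was 0.123. An adjusted p above the threshold does not show that levels were alike, and the 95% intervals give the changes that these arrays leave possible.

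In hindlimb the intervals were narrow for the bright genes under quantile normalization. The 8 effects on ldhb.S ran from -0.31 to 0.23 on the log2 scale, with intervals inside -0.70 to 0.61. These intervals hold for this scaling only. At 96 h the effects of PTU, MMI and PER on ldhb.S were -0.31, -0.29 and -0.29 (adjusted p 0.332, 0.425 and 0.376 in limma). None of the 3 groups overlapped the controls they share, but the highest PER array and the lowest control both read 14.85. The share of all tested pairs without such overlap is not given here. With median centring they were -0.71, -0.81 and -0.89 and all passed (adjusted p 0.0473, 0.0198 and 0.0217 in limma). With bright centring they were -1.73, -1.43 and -1.96, of which PER passed (adjusted p 0.0332 in limma), and with no scaling -1.28, -0.72 and -1.10, of which none passed. The effects on gapdh.S pair B ran from -0.34 to 0.16, with intervals inside -0.98 to 0.77, which also hold for this scaling only. Over all alternatives its effects at 96 h ran from -1.27 to 0.24 with PTU and from -0.73 to 0.26 with MMI. With PER they ran from -1.34 to 0.18, and none of these passed. aldoc.L was above background on 0 of 38 hindlimb arrays. pkm.S was above background on 3 of 26 hindlimb arrays at 24 h and 4 of 12 at 96 h. All 7 of these arrays came from exposed animals, with no group showing more than 2 of its arrays. Most hindlimb arrays were of exposed animals, since controls made up 9 of the 26 at 24 h and 3 of the 12 at 96 h. Neither gene was tested there.

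In tail, effects on ldhb.S ran from -0.20 to 0.02, with intervals inside -0.72 to 0.51, while those on pkm.S ran from -0.88 to 0.67, with intervals as wide as -2.56 to 2.24. ldhb.S was the brightest pair on 15 of 26 tail arrays, where quantile normalization compresses its differences, so its short intervals are no measure of its steadiness. On the T4 set's arrays it was never the brightest. There ldhb.S read 13.68, 14.00, 14.17 and 13.77 with T4 and 13.79, 13.92 and 14.34 in its controls. pkm.S read 11.65, 12.41, 12.07 and 12.55 with T4 against 13.00, 12.48 and 9.01 in controls, so that its effect of 0.67 turned to -0.58 without the control array at background. The effect of T4 on aldoc.L, 0.23, turned to -0.54 in the same way. For both genes, all T4 arrays lay within the span of their controls only with the control array at background counted. Without it, the highest T4 array still lay between the remaining controls, at 12.55 for pkm.S and 11.97 for aldoc.L, with the rest below them.

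gapdh.S in tail gave the 3 lowest p-values of the 56 tests, all with MMI. Pair C read 11.44, 11.40 and 10.61 with MMI and 11.85, 11.91 and 12.33 in the shared inhibitor controls, so that the groups did not overlap. How many of all tested pairs did the same is not given here. The effects were -0.86 for pair A, -0.83 for pair B and -0.88 for pair C, with adjusted p of 0.147, 0.147 and 0.123 in limma. Over all 51 pairs tested in that comparison the median effect was -0.31, and 16 had an unadjusted p under 0.05. The haemoglobin gene hbd.S had an effect of -1.02 in the same comparison (adjusted p 0.147 in limma, not passed), and its part in the values of gapdh.S was not tested. With no scaling between arrays the effects turned to 0.18, 0.18 and 0.17, and with hindlimb and tail arrays normalized together pair C read -0.97 and passed (adjusted p 0.0486 in limma).

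**Figure D3:**
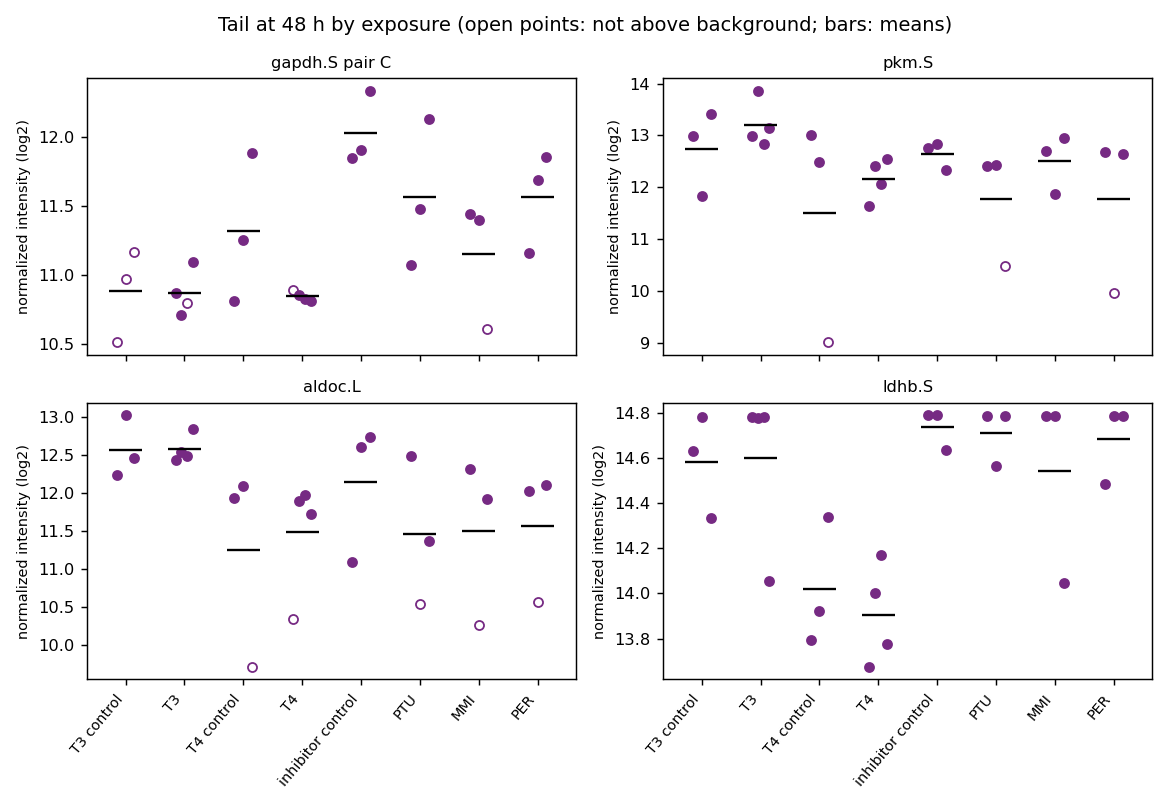
Normalized log2 intensity (vertical axes) on the tail arrays at 48 h by exposure group (horizontal axis) for gapdh.S pair C, pkm.S, aldoc.L and ldhb.S, with bars for means and open points for arrays not above background. Groups next to each other by mean overlap for all 4, which need not hold for groups drawn side by side. The inhibitor controls lead for gapdh.S with a mean of 12.03, and single arrays at background pull down the means of pkm.S and aldoc.L.

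The sets do not share 1 scale, so an order across them describes normalized values only. Ordered by mean, the groups of a tissue formed an unbroken series. For each of the 6 pairs, every group overlapped its neighbours in that order, in tail (8 groups) and in hindlimb (12 groups, or 8 at 24 h for gapdh.S pairs A and C). T3 stood highest in tail for pkm.S (13.21 ± 0.45, SD, n = 4) and for aldoc.L (12.57 ± 0.18, SD, n = 4). The T3 controls came next for both, at 12.75 ± 0.82 and 12.57 ± 0.41 (SD, n = 3). The effect of T3 passed for neither gene, and these places are not read as an effect of T3 or of its set. The inhibitor controls stood highest in tail for all 3 gapdh.S pairs. ldhb.S was the brightest pair on 3 of 3 inhibitor controls in tail, where quantile normalization gives it the same ceiling, and its place in the order is not read. The lowest 2 group means of ldhb.S in tail were both from the T4 set, at 14.02 ± 0.28 in its controls (SD, n = 3) and 13.90 ± 0.22 with T4 (SD, n = 4).

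**Figure D4:**
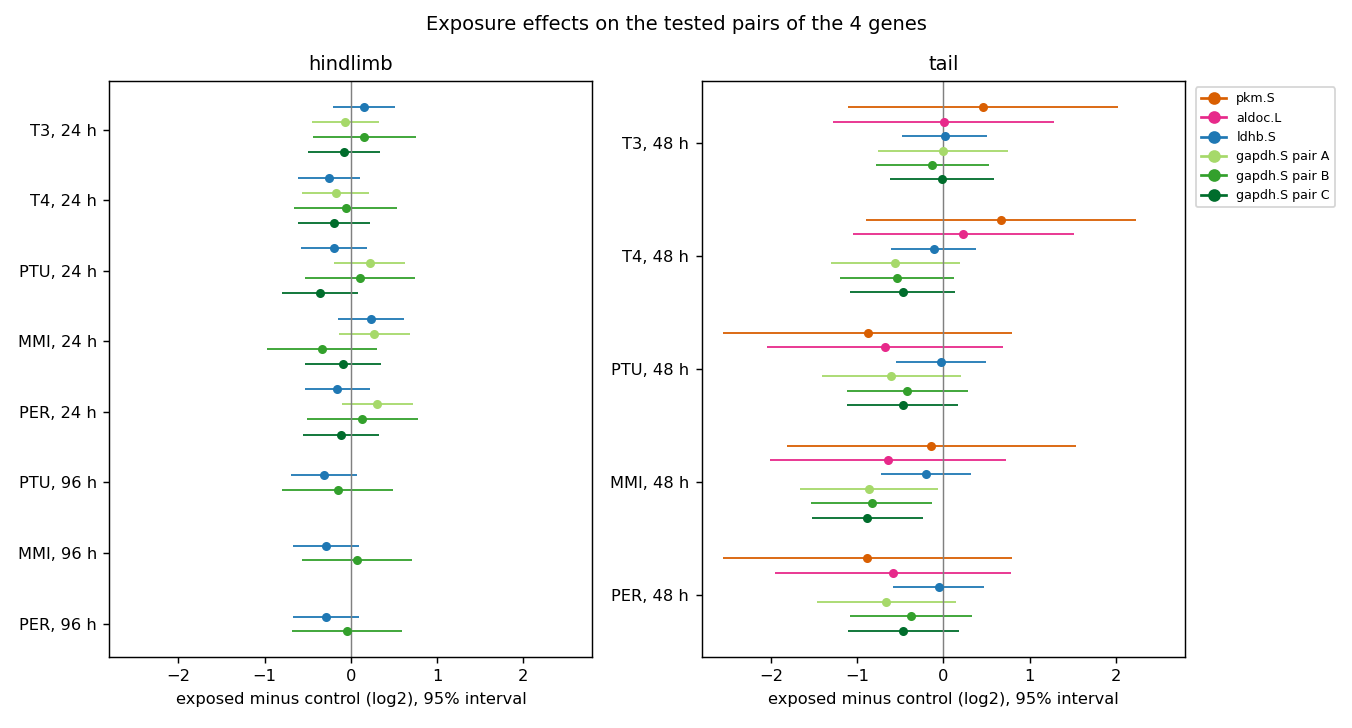
Difference of exposed minus control (log2, horizontal axis) with its 95% interval for every tested pair, by exposure and time (vertical axis), in hindlimb and tail. None of the 56 passed the threshold. Intervals of ldhb.S are short under quantile normalization, which compresses it in tail, and those of pkm.S in tail reach from -2.56 to 2.24.

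Whether an exposure acted differently in tail and hindlimb was tested directly as a difference of effects. Of 30 member tests limma passed 0, while 3 had an unadjusted p under 0.05, and the lowest adjusted p was 0.245. The background was 0% with T3, PTU, MMI and PER and 1.59% with T4. An unadjusted p under 0.05 was seen over all pairs in 0 of 69 with T3, 11 of 63 with T4 and 8 of 63 with PTU. With MMI it was seen in 3 of 63 and with PER in 5 of 65. The effect of MMI on gapdh.S pair A was lower in tail than in hindlimb by -1.37, with a 95% interval from -2.37 to -0.38. For pair B the difference was -0.55 (interval -1.52 to 0.41) and for pair C -0.82 (unadjusted p 0.0506 in limma). The 3 unadjusted p under 0.05 were all of pair A, with PTU, MMI and PER. These 3 tests share the inhibitor controls of both tissues and are not separate results. With both tissues normalized together, those controls had the highest tail mean of pair A (12.42) and its lowest hindlimb mean (14.13). The effect of T3 on ldhb.S differed by -0.14 (interval -0.71 to 0.43). The ratio of ldhb.S to gapdh.S pair B gave no call over the 13 exposures (adjusted exact permutation p = 1 for each). This outcome was fixed in advance and shows nothing about the exposures. Before adjustment, 3 against 3 cannot go below 0.1, which holds for 9 of the 13, and 4 against 3 not below 0.0286. After adjustment over the 13 no comparison could pass. Only MMI in hindlimb at 96 h left the groups without overlap, with a change of -0.70 and an exact permutation p = 0.1.

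Time in hindlimb was compared in the inhibitor controls, at 96 h against 24 h, with all hindlimb arrays normalized together. Time cannot be told apart there from the set of arrays. The 3 gapdh.S pairs parted there. At 24 h pairs A, B and C were above background on 26 of 26 arrays each, with means of 14.87, 14.73 and 14.65. At 96 h pair B was above background on 12 of 12 arrays with a mean of 14.79, while pairs A and C were above background on 0 of 12, with means of 10.55 and 10.47.

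Of 18 pairs above background on at least 90% of the 24 h arrays, these 2 were the only ones above background on no array at 96 h, and the other 16 were above on at least 90%. The cause was not tested, and only pair B is used at 96 h. By it, gapdh.S differed by 0.05 between the times and ldhb.S by 0.40 (SE 0.19, adjusted p 0.139 in limma). Thus 0 of 2 passed, where 20.0% of 40 tested pairs passed. The 40 include gapdh.S pairs A and C, which are 2 of the 8 that passed, both lower at 96 h. With median centring ldhb.S read 0.77 and passed (adjusted p 0.0198 in limma), and its levels at 96 h in controls were 15.02, 14.85 and 14.99 against 14.43, 14.68 and 14.55 at 24 h. Over all alternatives the difference of gapdh.S pair B ran from -0.32 to 1.32 and passed in 1 (adjusted p 0.0264 in limma). That of ldhb.S ran from 0.34 to 1.98 and passed in 3.

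**Figure D5:**
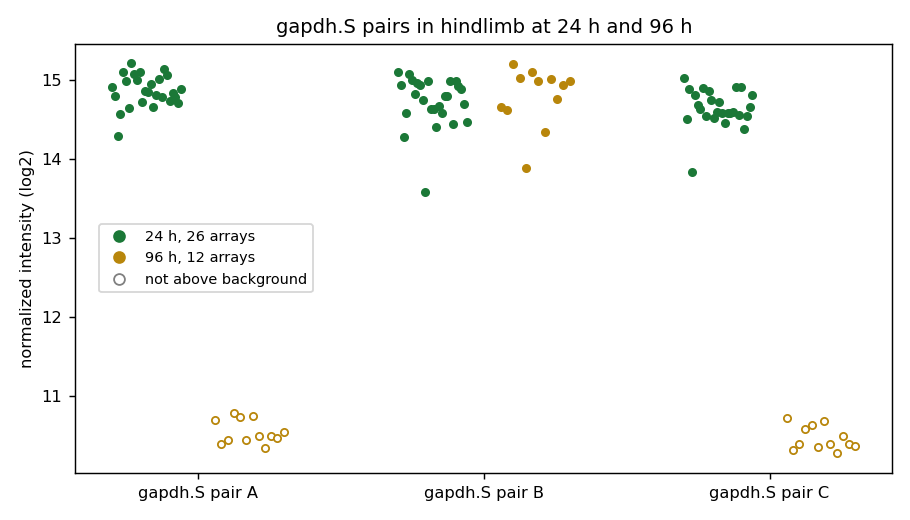
Normalized log2 intensity (vertical axis) of the 3 gapdh.S pairs (horizontal axis) on each hindlimb array at 24 h and 96 h, with open points for arrays not above background. Pair B lies near 14.8 at both times under quantile normalization, and pairs A and C lie near 10.5 on all 12 arrays at 96 h.

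Across the 26 tail arrays, which share their exposure sets, pkm.S was most like aldoc.L among 28 candidate pairs (Pearson r 0.68), followed by mamdc2.L (0.66) and des.1.S (0.60). aldoc.L was most like pkm.S and mamdc2.L (0.59). The gapdh.S pairs followed each other (r 0.95 to 0.97) and were most like nme2.L, a nucleoside diphosphate kinase, and the ribosomal protein gene rpl35a.S, with r from 0.79 to 0.90. The third was the haemoglobin gene hbd.S for pair A (0.79) and the ribosomal protein gene rpl8.S for pair B (0.86), and for pair C rpl8.S came ahead of both (0.87). pkm.S and gapdh.S pair B ran opposite ways (r -0.55), and ldhb.S showed r of 0.33 with gapdh.S pair B and -0.05 with pkm.S. In hindlimb at 24 h the gapdh.S pairs, all near the top of the scale, correlated weakly (r 0.09 to 0.32 over 26 arrays). These correlations are descriptions and share the normalization of the arrays.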

How the data were processed

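Each deposited value is the linear intensity of 1 spot. The authors had subtracted background before, since 19.9 to 50.6% of the deposited intensities of an array are below 0. P32 labelling of amplified RNA is stated per the labels' protocols. Not given in the sources used here are the scanner, the background method and the scaling within each set. Of the spots of an array, 0.739 to 12.4% are blank. The number of arrays limits the precision, since intensities hold no counts.

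Spots were passed through normexp with an offset of 50, which shrinks differences of dim spots, put on the log2 scale, quantile normalized and averaged over duplicates (limma 3.58.1, statmod 1.5.0, R 4.3.3). Treatments were normalized within a tissue, tissues in the 18 controls together, and exposed tissues in the 52 arrays left without hindlimb at 96 h. The noise SD of an array is the median size of its values below 0, times 1.4826. Testing a pair required 3 arrays, among the groups compared, above 2 noise SD. Models had a term for each group (lmFit, eBayes) and, in controls, a term for the exposure set. Adjusted p-values are Benjamini-Hochberg over all pairs tested in a comparison, two-sided, with a threshold of 0.05, over 25 comparisons. The models were tested on simulated data.

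The set of pairs from which eBayes takes the shared spread was not laid down at the outset. Of 3 versions tried, the one kept (the pairs of a fit with 3 or more arrays above background) was chosen with results in view, because it came closest to an earlier account of these data. The other versions are among the alternatives. Members, lists and tests were chosen with earlier results of these data known. The genes named are the members, listed genes of the same metabolism, genes whose values move with a member, and for each member the 3 named pairs most like it by Pearson r among those above background on at least 50% of the arrays. Replicate numbers were not taken to pair the arrays. In 0 of 13 comparisons were all correlations of same-numbered arrays over 0.1 (-0.32 to 0.44, median 0.01). Symbols of 229 pairs were updated by gene identifier through the Xenopus_laevis_v10.1 annotation, used for names only. No arrays held identical values. Sequences were not used here.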

Additional observations from a re-analysis of the deposited data

Results flagged for a closer look

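Single arrays that stood apart from the rest of their group were looked for in groups of 4 to 10 arrays, over 36 groups of values, where chance marks about 1 in 20, and 6 were found. In controls, pkm.S read 8.78 on hindlimb T3 control replicate 2 (the other 8 read 9.55 to 10.07), where all values lie at background, and 9.04 on tail T4 control replicate 3 (others 11.85 to 13.76), the array described above. ldhb.S read 14.77 on hindlimb T4 control replicate 3 (others 13.61 to 13.97). With T4 in tail, aldoc.L read 10.35 on replicate 1 (others 11.73 to 11.97). With T3 in tail, ldhb.S read 14.05 on replicate 4, where the others all read 14.78, the value quantile normalization gives to the brightest spots. With T3 in hindlimb, gapdh.S pair C read 14.46 on replicate 1 (others 14.58 to 14.60).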

How the results depend on the processing

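The count of members that passed between control tissues was 3 of the 4 tested in the T4 set alone and ran from 4 to 6 under the 18 other alternatives. Leaving out 1 array it stayed at 6, with the replicate block it was 6, and the block changed no member count. The members' counts in single exposures moved from 0 to 1 with median centring (PTU, MMI and PER at 96 h, where ldhb.S read -0.71, -0.81 and -0.89), with bright centring (PER at 96 h, -1.96) and, with MMI in tail, with 52 arrays normalized together. For 96 h against 24 h the count was 1 with median or bright centring and 2 with no scaling. Over all alternatives 5 of 1238 recomputed exposure effects and 0 of 829 differences of effects passed. Signs of these uncalled values were less stable: 179 of the 2067 changed sign, none of those past the threshold, with values from -0.87 to 1.02 after the change. Only the values named in the text are followed one by one here, a choice made after these results were seen.

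ldhb.S in tail against hindlimb turned to -0.05 with T3 (median centring), and with no scaling to -0.08 with T4, -0.11 with PTU and -0.23 with MMI. With MMI in tail, no scaling turned gapdh.S to 0.18, 0.18 and 0.17. The effects of T4 in tail turned to -0.06 (pkm.S) and -0.21 (aldoc.L) with array weights, and leaving out 1 array they ran from -0.58 to 1.42 and from -0.54 to 0.65. gapdh.S at 96 h against 24 h turned to -0.32 with the second spot alone and ran from -0.20 to 0.22 leaving out 1 array. Its highest value over all alternatives was 1.32. The cause of these turns was not tested. The version of the shared spread changed 1 call among the members: over the pairs tested alone, ldhb.S in tail against hindlimb with T4 passed (0.38, adjusted p 0.049 in limma).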
